A study of Mus musculus with 4 samples.

Results

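The mast cell protease genes examined here were 8 of the 31950 gene IDs that both libraries share, chosen by name and matched by ID: Mcpt1, Mcpt2, Mcpt4, Cma1, Cpa3, Tpsb2, Fcer1a and Ms4a2. They were followed in single-cell RNA-Seq of lamina propria cells from the proximal small intestine of 12-week-old WT mice and of A20ZF7 mice, which carry homozygous knock-in mutations in the M1-ubiquitin-binding motif of A20 (the protein encoded by Tnfaip3). Each genotype was 1 library of 2 pooled mice, from cells enriched for T cells and innate lymphoid cells by negative selection, so mast cells were there only as far as the enrichment left them. With 1 library per genotype there was no replicate, no test was made, and each interval given is an exact 95% interval that covers counting error only. Differences between the genotypes cannot be told apart from differences between these libraries or pools.

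Mast cells store proteases in granules and release them when antigen crosslinks IgE on their surface. In mice they are divided into a mucosal type, found in the intestinal epithelium and lamina propria and known for the chymases Mcpt1 and Mcpt2, and a connective tissue type, found in skin and submucosa and known for the chymases Mcpt4 and Cma1 (mouse mast cell protease 5) and the tryptase Tpsb2. Cpa3, a carboxypeptidase, can be made by both types, and Fcer1a and Ms4a2 encode the α and β chains of the high-affinity IgE receptor.

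Of the 8 genes, 4 lay together on chromosome 14 of the GRCm38 build, within 120.9 kb. Cma1 was at chr14:55941451-55944675 on the minus strand, Mcpt1 at chr14:56017971-56020384 and Mcpt2 at chr14:56042041-56044642 on the plus strand, and Mcpt4 at chr14:56059629-56062313 on the minus strand. Cpa3 was at chr3:20215620-20242181, Tpsb2 at chr17:25366305-25369098, Fcer1a at chr1:173221284-173227214 and Ms4a2 at chr19:11615523-11623719. Related transcripts can trade reads: of the 1059 stretches of 50 bases in the Mcpt4 transcript, 58 were also in Cma2 and 7 in Mcpt9, and no stretch of 50 bases was shared between any pair of the 8 genes. The promoters of Mcpt1, Mcpt4, Cma1 and Cpa3 are printed to show how alike a mucosal and a connective tissue type gene of the same cluster are before their start, beside a further gene of the cluster and one from elsewhere. Each is the 150 bases before the RefSeq start of the gene (GRCm38, 5′ to 3′ on the strand of the gene, at chr14:56017814-56017963, chr14:56062311-56062460, chr14:55944676-55944825 and chr3:20242182-20242331). Capitals mark TGATAA or AGATAA on either strand, forms of the core bound by GATA factors such as Gata2, and TATAAA on the gene's strand.
Mcpt1: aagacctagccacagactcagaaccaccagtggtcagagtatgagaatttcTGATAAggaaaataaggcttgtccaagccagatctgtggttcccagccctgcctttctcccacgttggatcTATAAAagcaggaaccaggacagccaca
Mcpt4: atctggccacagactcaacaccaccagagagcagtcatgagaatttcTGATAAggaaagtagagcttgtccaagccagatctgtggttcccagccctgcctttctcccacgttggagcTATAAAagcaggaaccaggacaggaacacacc
Cma1: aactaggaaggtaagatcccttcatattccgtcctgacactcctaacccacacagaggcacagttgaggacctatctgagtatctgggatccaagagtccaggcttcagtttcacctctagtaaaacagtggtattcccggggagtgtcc
Cpa3: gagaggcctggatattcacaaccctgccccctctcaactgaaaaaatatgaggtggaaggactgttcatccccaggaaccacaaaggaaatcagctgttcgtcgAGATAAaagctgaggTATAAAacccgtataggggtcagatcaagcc
The Mcpt1 and Mcpt4 promoters, of a mucosal and a connective tissue type gene, matched at 110 of 146 bases with a shift of 4 bases and held a shared run of 53 bases. Every other pair matched at 41.6% of bases or less at its best shift. TGATAA or AGATAA was in 5 of the 6 promoters analysed (Mcpt1, Mcpt4, Cpa3, Fcer1a and Ms4a2) against 9.65% of all 32851 promoters. TATAAA was in 4 of 6 against 4.84%. Other forms of the GATA core were not searched, and the Cma1 promoter holds ctatct, which is AGATAG on the other strand. The Mcpt1 and Mcpt4 promoters are too alike to count as separate cases. The promoters of Mcpt2 and Tpsb2 were not analysed here.

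The genes were rare in both libraries and were found in few barcodes. Among all barcodes, 1085 of 35171651 WT unique molecular identifiers (UMIs, each a captured transcript) and 3060 of 52727058 A20ZF7 UMIs came from the 8 genes. Cells were barcodes with at least 675 UMIs in the WT library or 396 in the A20ZF7 library, 14734 and 43218 barcodes, of which 14712 and 42850 held no UMI of the 8 genes. The 9 WT and 93 A20ZF7 cells with at least 3 UMIs of the 8 genes are called carriers. They held 91.2% of the WT and 76.0% of the A20ZF7 UMIs of the 8 genes. They had a median of 1618 UMIs in the WT and 985 in the A20ZF7 library. Carriers were 0.0611% of WT cells (0.0279 to 0.116) and 0.215% of A20ZF7 cells (0.174 to 0.264), a ratio of 3.52 (1.78 to 7.95). The share depends on the enrichment for lymphocytes and on the lower UMI minimum of the A20ZF7 library, whose part was not tested.

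The carriers were chosen by the genes themselves, so a gate that did not read them was set beside them. This mast gate took cells with at least 3 UMIs over at least 2 of Hdc (histidine decarboxylase), Gata2, Kit (the stem cell factor receptor), Cyp11a1, Slc18a2, Tph1 and Rab27b, with 2 or more outside Kit and at least 3 times the level of sparse barcodes. It took 29 WT and 96 A20ZF7 barcodes, 0.197% of WT cells (0.132 to 0.283) and 0.222% of A20ZF7 cells (0.180 to 0.271), intervals that overlap where those of the carriers did not. Of these barcodes 24 and 48 held no UMI of the 8 genes, and levels in the gate are sums that include them. RNA of other cells was in the gate and differed between the libraries. Pecam1, of the stromal list, was at 655 CPM in WT and 184 CPM in A20ZF7. Igha, an immunoglobulin gene, was at 205 and 2471 CPM. The shares above are thus shares of gated barcodes, not of mast cells alone. The gate held 56.6% of the WT and 46.0% of the A20ZF7 UMIs of the 8 genes. It held 5 of the 9 WT carriers and 48 of the 93 A20ZF7 carriers. A further gate on Cpa3, Fcer1a and Ms4a2 alone (at least 3 UMIs over at least 2 of them) took 8 WT and 38 A20ZF7 barcodes and left the 5 granule proteases unused.

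The 5 granule proteases were mostly of the mucosal type in both genotypes, and the mucosal share was lower in the A20ZF7 library. In the mast gate, Mcpt1 and Mcpt2 gave 96.4% of the WT granule protease UMIs (94.5 to 97.8, 537 of mucosal type against 20 of connective tissue type) and 76.0% of the A20ZF7 ones (73.5 to 78.4, 910 against 287). In the gate on Cpa3, Fcer1a and Ms4a2 the shares were 95.5% (93.9 to 96.8) and 76.7% (74.1 to 79.1), and in the carriers 95.5% (94.0 to 96.8) and 76.0% (74.0 to 77.9). Over all barcodes they were 94.1% and 74.2%. By mouse, which hashtags gave for WT alone, the 2 carriers called for mouse 1 held 87.8% mucosal UMIs, the single carrier of mouse 2 held 94.4%, and the 6 carriers without a hashtag call held 96.5%.

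**Figure D1:**
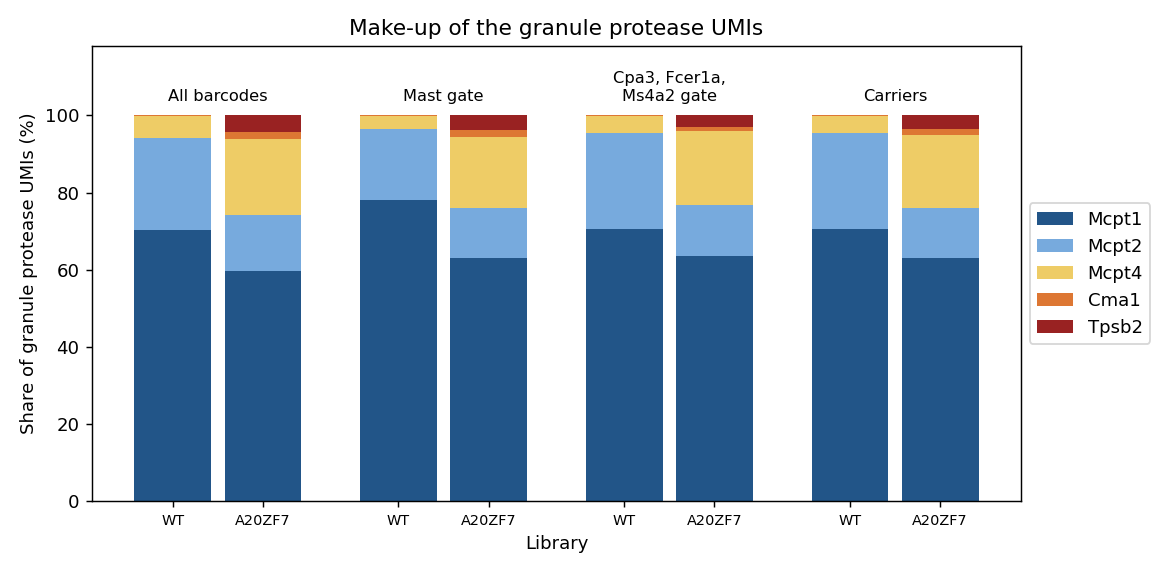
Share of granule protease UMIs (%) that came from each of the 5 genes, in all barcodes, the mast gate, the gate on Cpa3, Fcer1a and Ms4a2, and the carriers, for the WT and A20ZF7 libraries. In all 4 sets the blue mucosal part is larger in the WT bar and the A20ZF7 bar has visible Cma1 and Tpsb2.

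The carriers differed among themselves. Of the 9 WT carriers, 4 held only mucosal proteases and 5 held both types, and the mucosal share per barcode ran from 86.6% through a median of 98.3% to 100%. Of the 86 A20ZF7 carriers with at least 3 granule protease UMIs, 9 held only mucosal proteases, 72 held both types and 5 held only connective tissue type, with a median mucosal share of 72.2%. Of these 86, 67 lay below the lowest WT carrier, 19 at or above it, and 23 were under 50%. That WT limit depends on the minimum of UMIs for cells. A WT barcode of 605 UMIs, under the WT minimum of 675 but over the A20ZF7 minimum of 396, held 6 Mcpt4 UMIs and no other member. Shares in barcodes with few granule protease UMIs also vary widely by counting. The barcodes of a library come from the same mice, so these counts describe the barcodes and are not a test of genotype.

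**Figure D2:**
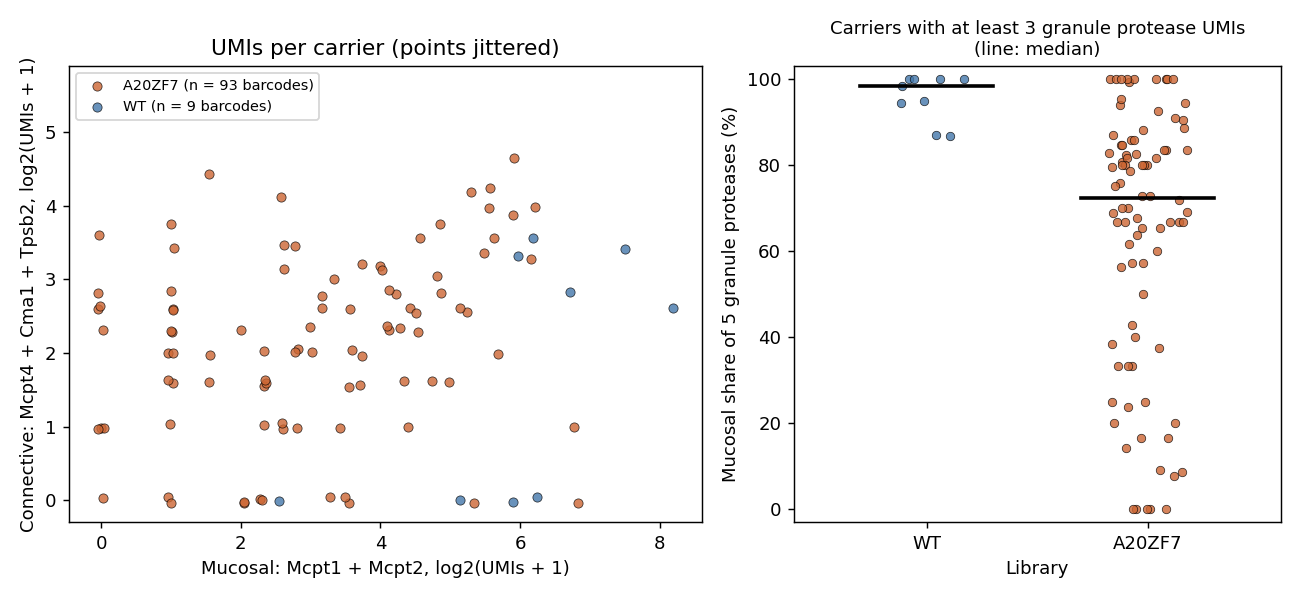
Left, each carrier by its mucosal (Mcpt1 and Mcpt2) and connective tissue type (Mcpt4, Cma1 and Tpsb2) UMIs on a log2(UMIs + 1) scale; right, the mucosal share of the 5 granule proteases (%) in carriers with at least 3 of their UMIs, with the median as a line. The 9 WT points sit at 86.6% or above, and the A20ZF7 points spread over the whole range.

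The mucosal chymase Mcpt1 was the most abundant of the 8 genes in both genotypes. In the carriers it was at 40010 CPM (UMIs of the gene per 1000000 UMIs of the summed barcodes) in the WT library (36986 to 43215, 647 UMIs) and at 11225 CPM in the A20ZF7 library (10610 to 11865, 1248 UMIs), a ratio of 0.281 (0.255 to 0.309). The median WT carrier was at 32258 CPM and the median A20ZF7 carrier at 7741 CPM. By mouse, the WT level was 14875 CPM in the 2 carriers of mouse 1, 31530 CPM in the carrier of mouse 2 and 49042 CPM in the 6 carriers without a hashtag call. Without the barcode of most UMIs in each library, the levels were 33626 and 10511 CPM. All 9 WT carriers and 77 of 93 A20ZF7 carriers held it. The direction differed between sets of barcodes. Over all cells the ratio was 0.905 (0.824 to 0.996), and over all barcodes Mcpt1 was at 19.6 CPM in the WT and 28.9 CPM in the A20ZF7 library, a ratio of 1.48 (1.35 to 1.62). In the mast gate the WT level was 8902 and the A20ZF7 level 4962 CPM, a ratio of 0.557 (0.495 to 0.629), but a single barcode held 225 of the 435 WT UMIs there. The ratio was 1.03 without WT mouse 1 and 2.28 without WT mouse 2, settings that also dropped the cells with no hashtag call and left 1 WT carrier in the gate, so the direction for Mcpt1 in the mast gate rests on few WT barcodes.

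Mcpt2, the other mucosal chymase, was at 14099 CPM in WT carriers (12329 to 16053) and at 2320 CPM in A20ZF7 carriers (2046 to 2622), a ratio of 0.165 (0.137 to 0.198). It was held by 8 of 9 WT and 56 of 93 A20ZF7 carriers, and 49 of the 77 A20ZF7 carriers with Mcpt1 also held Mcpt2. In the mast gate the ratio was 0.488 (0.378 to 0.633), and it was 0.831 with hashtag doublets kept, 0.818 without WT mouse 1 and 0.935 without WT mouse 2. Over all barcodes it was 1.07 (0.904 to 1.26). In the gate on Cpa3, Fcer1a and Ms4a2 the ratio was 0.198 for Mcpt2 and 0.337 for Mcpt1.

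Mcpt4, the chymase of the connective tissue type, was at 2474 CPM in WT carriers (1767 to 3368) and at 3373 CPM in A20ZF7 carriers (3040 to 3732), a ratio of 1.36 (0.983 to 1.94) whose interval includes 1. It was held by 5 of 9 WT carriers and by 79 of 93 A20ZF7 carriers. In the mast gate, where the WT level was 389 and the A20ZF7 level 1439 CPM, the ratio was 3.70 (2.31 to 6.27). The WT level there came from 19 UMIs in 3 barcodes. None of the 8 genes was in 24 of the 29 WT barcodes of the gate, against 48 of 96 in A20ZF7. The gate ratio for Mcpt4 thus rests on few WT barcodes.

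The other 2 genes of the connective tissue type gave few or no UMIs in the WT library. Cma1 gave 1 UMI in all WT barcodes and 47 in all A20ZF7 barcodes, and 1 of 9 WT and 16 of 93 A20ZF7 carriers held it. Tpsb2 gave 0 UMIs in all WT barcodes, where 3 UMIs would be 0.0853 CPM, and 109 UMIs (2.07 CPM) in all A20ZF7 barcodes. That is 24.2-fold the level of 3 WT UMIs, and the exact interval of the ratio starts at 19.4. In carriers Tpsb2 was at 0 UMIs in 9 WT barcodes, where 3 UMIs would be 186 CPM. In A20ZF7 carriers it was at 630 CPM (491 to 795), 3.39-fold that level, and the exact interval of the ratio starts at 2.69. By barcode the WT carriers were too few to separate the libraries: 0 of 9 WT carriers allows a share of up to 33.6%, and 29 of 93 A20ZF7 carriers were 31.2% (22.0 to 41.6). After each carrier was thinned to 500 UMIs, which left out 12 A20ZF7 carriers, Tpsb2 was in 0 of 9 WT and 23 of 81 A20ZF7 barcodes.

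Most of the 93 A20ZF7 carriers held Mcpt4 (79) and Mcpt1 (77), and the carriers with Tpsb2 or Cma1 are set beside these counts. Of the 29 carriers with Tpsb2, 28 held Mcpt4 and 22 held Mcpt1. Of the 16 with Cma1, 15 held Mcpt4 and 9 held Mcpt1. The 8 carriers that held both Cma1 and Tpsb2 had 10.4% mucosal UMIs, with Mcpt1 at 1152 CPM and Mcpt4 at 5329 CPM, against 83.2% mucosal UMIs and Mcpt1 at 12644 CPM in the 56 carriers that held neither Cma1 nor Tpsb2. These groups were formed on the genes they are described by, so the contrast is a description.

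The carboxypeptidase Cpa3 was at 2350 CPM in WT carriers (1663 to 3225) and 1907 CPM in A20ZF7 carriers (1659 to 2181), a ratio of 0.811 (0.572 to 1.18). It was held by 8 of 9 and 66 of 93 carriers. Fcer1a was at 1855 CPM (1252 to 2648) and 1052 CPM (870 to 1261), a ratio of 0.567 (0.377 to 0.878), and Ms4a2 at 371 CPM (136 to 808) and 144 CPM (82.3 to 234), a ratio of 0.388 (0.144 to 1.21). Over all barcodes the ratio was 3.30 (2.53 to 4.37) for Cpa3, 3.21 (2.18 to 4.86) for Fcer1a and 1.75 (0.745 to 4.57) for Ms4a2. In the mast gate the ratio was 1.47 (0.982 to 2.26) for Cpa3, 0.908 (0.557 to 1.53) for Fcer1a and 0.723 (0.202 to 3.21) for Ms4a2.

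Over all barcodes, 5.34% of 16809 genes with 20 UMIs in the higher library were at least 2-fold higher in the A20ZF7 library. Of the 8 members, all of which passed that filter, Mcpt4, Cpa3 and Fcer1a were at least 2-fold higher with 20 UMIs or more in both libraries, and Cma1 and Tpsb2 were so after passing the filter through the A20ZF7 library alone, as Ms4a2 did. In these sums a higher share of carriers and more RNA per carrier cannot be told apart. Between the carriers of the libraries, 35.4% of 604 genes were at least 2-fold higher in A20ZF7 and 1.66% at least 2-fold lower, with 20 CPM added to each level. The filter there (100 CPM and 20 UMIs in the higher library) asked for 1237 CPM of a gene higher in WT and 180 CPM of one higher in A20ZF7, since the carriers summed to 16171 and 111184 UMIs, so nothing is read from these shares. Genes higher in A20ZF7 carriers included Gzma, Il17a and Col3a1, of lymphocytes and stroma, each with 0 UMIs in WT carriers.

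RNA of other cells moved with the carriers. The 11 lymphocyte genes (such as Cd3e and Trac) were at 618 CPM in WT and 1493 CPM in A20ZF7 carriers, and the 9 stromal genes (such as Col1a1 and Dcn) at 124 and 3094 CPM. The 65 A20ZF7 carriers with at most 5 UMIs of both lists held 71.6% mucosal UMIs, against 95.5% in the 9 WT carriers, all of which met the same limit. These 65 were not matched to the WT carriers. They had a median of 777 UMIs and still held the lymphocyte genes at 1085 CPM and the stromal genes at 805 CPM. Mcpt8, a protease of basophils, gave 16 UMIs in 3 WT carriers (989 CPM) and 12 in 5 A20ZF7 carriers (108 CPM). Those 3 WT carriers held 364 of the 647 Mcpt1 UMIs and 97.6% mucosal UMIs. The part of these cells in the differences was not tested.

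In lymphocyte and stromal cells outside the carriers the 8 genes were below the level of sparse barcodes, which hold free RNA. In barcodes of 1 to 50 UMIs, they summed to 10.2 CPM in the WT library (5.71 to 16.8) and 44.5 CPM in the A20ZF7 library (31.0 to 61.9), a ratio of 4.36 (2.32 to 8.60). In stromal cells without carriers, the sums were 0.127 CPM (1 UMI in 6051 barcodes) and 5.72 CPM (63 UMIs in 9777 barcodes). In lymphocytes without carriers, they were 1.28 CPM (6 UMIs in 3472 barcodes) and 5.53 CPM (110 UMIs in 14876 barcodes), a ratio of 4.32 (1.92 to 12.0). With the carriers that passed the lymphocyte gate, 1 WT and 11 A20ZF7 barcodes, the ratio turned to 0.301, since the WT carrier alone held 202 of the 208 UMIs. Without carriers, each of these levels was below that of sparse barcodes of the same library, but carriers were taken out by these same genes. With carriers left in, the A20ZF7 sums were 9.72 CPM in stromal cells and 13.4 CPM in lymphocytes, also below. The WT lymphocyte sum was then 44.4 CPM, above the WT sparse barcodes. Whether the remaining UMIs were background or expression was not tested. Lymphocyte is here the name of a gate that was not pure. Without carriers, the 11 lymphocyte genes were at 3878 CPM in its WT and 3806 CPM in its A20ZF7 barcodes. Sparse barcodes held them at 3385 and 5617 CPM, so the A20ZF7 gate was below free RNA. A list of B and plasma cell genes was at 4096 CPM in the WT and 2100 CPM in the A20ZF7 gate. In the A20ZF7 sparse barcodes, Mcpt1 was highest, with 12 UMIs, followed by Mcpt4 with 6, and Tpsb2 gave 4.

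**Figure D3:**
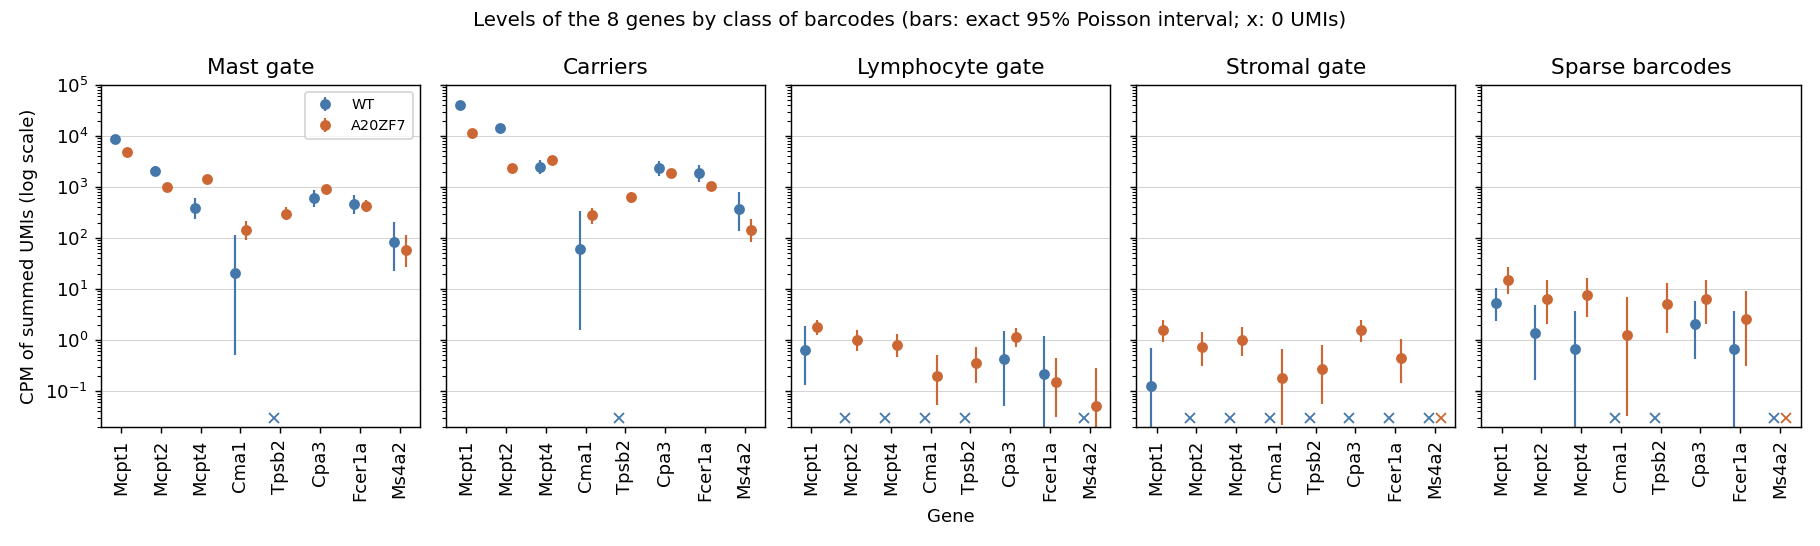
CPM (log scale) of the 8 genes in the mast gate, the carriers, lymphocyte and stromal gates without carriers, and sparse barcodes of 1 to 50 UMIs, for WT and A20ZF7; bars are exact 95% Poisson intervals and a cross marks 0 UMIs. Mcpt1 and Mcpt2 are higher in WT in the carriers, Tpsb2 has a cross for WT in every class, and the points of the lymphocyte, stromal and sparse panels lie below 20 CPM.

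Other mast cell genes were present in the carriers of both libraries. Compared with the other cells of the same library, with 20 CPM added, 3.21% of 1214 genes in WT and 4.83% of 1574 genes in A20ZF7 were at least 2-fold higher in carriers, with medians of -1.25 and -0.19 on the log2 scale. Genes were eligible at 100 CPM and 20 UMIs in carriers or other cells, whichever was higher. Since 20 UMIs were 1237 CPM in WT and 180 CPM in A20ZF7 carriers, the counts of eligible genes are not compared between the libraries. Of the 11 other protease and granule genes, 2 were eligible and higher in WT (Gzmb and Srgn) and 3 in A20ZF7 (Gzmb, Srgn and Hdc), with medians of 2.96 and 1.78 on the log2 scale. Hdc, which makes histamine, was at 247 CPM in WT carriers (4 UMIs) and 863 CPM in A20ZF7 carriers (96 UMIs), a ratio of 3.49 (1.32 to 13.1). The tryptase Tpsab1 and the chymase Cma2 gave 0 UMIs in carriers of both libraries, and Tpsg1, a transmembrane tryptase, 0 in WT and 7 in A20ZF7.

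Of the 7 genes of IgE receptor signalling, only Fcer1g, the receptor's γ chain, was eligible, and it was higher in carriers of both libraries, at 1546 CPM in WT and 639 CPM in A20ZF7. Of the 11 surface and regulatory genes, 3 of 5 eligible were higher in A20ZF7 carriers (Kit, Gata2 and Il1rl1, the IL-33 receptor, beside Itgb7 and Cd63, which were under the fold), and only Itgb7 and Cd63 were eligible in WT, with neither higher. In WT carriers Kit was 12.1-fold (6.57 to 20.3, 14 UMIs), Gata2 466-fold (226 to 902, 13 UMIs) and Il1rl1 54.9-fold (19.8 to 123, 6 UMIs) the level of other cells. Gata2 was at 804 CPM in WT and 738 CPM in A20ZF7 carriers. The receptors Mrgprb1 and Mrgprb2 gave 0 UMIs in carriers of both libraries. The list of 8 lipid mediator genes also held Tph1, an enzyme of serotonin synthesis that makes no lipid. Of the 8 genes, 3 were eligible and higher in A20ZF7 carriers (Alox5, Alox5ap and Tph1), and none was eligible in WT. There Alox5ap was 123-fold (62.0 to 223, 12 UMIs) and Alox5 134-fold (26.1 to 435, 3 UMIs) the level of other cells. Alox5ap was at 742 CPM in WT and 270 CPM in A20ZF7 carriers.

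Of the 7 cytokines and growth factors that act on mast cells, Il9 and Il3 gave 0 UMIs in carriers of both libraries, and Il9 gave 1 UMI in the WT lymphocyte gate. Il4 was at 371 CPM in WT (6 UMIs) and 495 CPM in A20ZF7 carriers (55 UMIs), where it was the 1 of 2 eligible genes that was higher than in other cells. Kitl, the ligand of Kit, was at 158 CPM (1240 UMIs) in WT and 107 CPM (1173 UMIs) in A20ZF7 stromal cells, and Il33 at 107 CPM and 82.6 CPM there. Sparse barcodes held Kitl at 55.8 and 47.1 CPM and Il33 at 20.4 and 21.6 CPM. Tgfb1 was at 87.7 CPM in WT and 125 CPM in A20ZF7 lymphocytes, beside 66.0 and 121 CPM in sparse barcodes, so its difference between the libraries was also there in free RNA.

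Over the 8 sums of barcode class and genotype, which share libraries, the genes whose log2(CPM + 20) was most like that of Mcpt1 by Pearson correlation were Rnd1 (0.996), Hdc (0.992), Lrg1 (0.992), Mctp1 and Ank (0.989), among 2708 genes. Of the other members, Mcpt2 (0.999), Fcer1a (0.995) and Ms4a2 (0.994) were as close. Cpa3 was at 0.987, Mcpt4 at 0.961, Cma1 at 0.827 and Tpsb2 at 0.590. Those most like Tpsb2 were Nek7 (0.937), Zfp706 (0.936), H19 (0.935), Rtraf (0.934) and Slc25a3 (0.934), and Cma1 was at 0.939. These are descriptions over few sums. Hdc is among the genes that set the mast gate, so its level in the mast sums was raised by the choice of barcodes. The mast sums also held RNA of other cells, since 24 of 29 WT and 48 of 96 A20ZF7 barcodes had none of the 8 genes. Pecam1, of the stromal list, was higher in WT there, as Mcpt1 was (655 against 184 CPM). A high correlation thus does not place a gene in mast cells, and the source of Rnd1, Lrg1, Mctp1 and Ank was not tested.

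The libraries shared 913 barcodes among cells. No carrier barcode was a carrier in both libraries, and the 12 WT and 116 A20ZF7 carrier barcodes, counted among all barcodes, held 3 and 4 UMIs of the 8 genes in the other library.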

How the data were processed

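The authors deposited unfiltered gene expression matrices of whole UMI counts (Cell Ranger, version 8.0.0 per the file headers and 7.1 per the submitters' processing notes; mm10). The WT features hold 1746 gene IDs that the A20ZF7 features lack, and 31950 shared IDs were used. Antibody counts were used for WT alone, because the file deposited for A20ZF7 is identical to that of WT. Cells had 200 to 2500 genes, at most 15% mitochondrial UMIs and a minimum of UMIs set by the order-of-magnitude rule (0.1 times the 0.99 quantile). WT barcodes called for 2 hashtags by HTODemux (Seurat 5.3.0, quantile 0.99) were removed, and A20ZF7 doublets and others were left in. Sums and intervals came from scipy 1.17.1 and pandas 2.3.3 under Python 3.11.15 (R 4.3.3 for the hashtags). The ratio script was run on simulated counts of the carriers. There 85% of raised and 100% of lowered genes passed 2-fold, but so did 19.5% of unchanged genes.

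CPM are UMIs of a gene per 1000000 UMIs of a class, and intervals are exact Poisson, Clopper-Pearson and conditional ratio intervals. A count of 0 was set to 3 UMIs per class as a floor for a fold. The stromal gate took at least 3 UMIs over at least 2 of 9 genes and 3 times the sparse level, and the lymphocyte gate the same over 11 genes. The lymphocyte gate as first written left 64 WT and 5 A20ZF7 barcodes, with 0 UMIs of the 8 genes, because sparse barcodes held its genes at a higher share than cells (Trdc gave 47.6% and 60.8% of those UMIs), so the multiple of the sparse level was dropped for it after the data were seen. Carriers and the sets without carriers were also added after the data were seen. The genes and lists were chosen with earlier results of these data known. The genes named are the 8 members, the fixed lists, the 5 genes most like Mcpt1 and the 5 most like Tpsb2. Other genes named (Gzma, Il17a, Col3a1, Pecam1 and Igha) were chosen after their values were seen.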

Additional observations from a re-analysis of the deposited data

Results flagged for a closer look

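Surface antibody counts were used for WT alone, since the A20ZF7 file was identical, and entered no comparison between the genotypes. On the 9 WT carriers, the antibody listed as FcRI with ID C0115, whose name does not say which Fc receptor it binds, had a median of 7.03 per 1000 antibody UMIs, against 1.72 on WT lymphocytes, and 7 of 9 carriers were above the 95th percentile of lymphocytes. It ranked 1 among all antibodies by the ratio of these medians (with 1 added to each). The CD117 antibody, which binds Kit, ranked 2 with a median of 7.61 against 3.46, and 5 of 9 carriers were above that percentile. A second antibody listed as FcRI (ID C0202) was at 14.7 against 14.1. Carriers and lymphocytes had median totals of 1650 and 1700.5 antibody UMIs.

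In A20ZF7 barcodes between 51 UMIs and the cell minimum, which formed no class of their own and entered the sums over all barcodes alone, the 8 genes summed to 77.3 CPM, above the 44.5 CPM of sparse barcodes. In the WT library they were at 8.38 against 10.2 CPM. These barcodes held 3 WT and 23 A20ZF7 barcodes with at least 3 UMIs of the 8 genes. Between 51 UMIs and the minimum, the mucosal share of granule protease UMIs was 65.2% in WT (49.8 to 78.6, 30 against 16 UMIs). In A20ZF7 it was 72.1% (66.9 to 76.8, 240 against 93 UMIs). The order of the libraries was there the opposite of that in the mast barcodes and carriers, with overlapping intervals.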

How the results depend on the processing

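The mucosal share of granule protease UMIs in the mast barcodes stayed between 87.0% and 96.4% in WT under every alternative run, and in A20ZF7 it stayed at 72.1% or more and below the lowest WT value. In WT it was 87.0% without WT mouse 2, 94.4% without WT mouse 1 and 94.3% in carriers without the largest barcode. It was 72.1% in A20ZF7 after thinning to 500 UMIs. The WT UMIs of the mast gate came from 5 carriers, so settings that kept these could hardly move the WT share. The settings without a WT mouse left 1 WT carrier in the gate.

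The ratio (A20ZF7 over WT) of the 8 genes summed in the mast gate was 0.736 and did not keep its direction. It was 1.25 with hashtag doublets kept, 1.28 without WT mouse 1 and 2.05 without WT mouse 2, and Mcpt1 alone was 1.03 and 2.28 without mouse 1 and mouse 2. It was 0.833 with 200 genes as the only cell filter, 0.926 with a gate of 2 UMIs, 0.483 with a gate of 5 UMIs, 0.993 with 10 times the sparse level and 0.342 in the carriers. No WT barcode with at least 3 UMIs of the 8 genes was called for 2 hashtags. Keeping doublets therefore added to the WT gate only barcodes with fewer such UMIs. The 5 granule proteases summed were at 0.690, and at 0.374 in the gate on Cpa3, Fcer1a and Ms4a2. In lymphocytes, leaving out carriers turned the ratio of the 8 genes from 0.301 to 4.32 and that of Mcpt1 to 2.83. In sparse barcodes of 11 to 50 UMIs the Mcpt1 ratio was 0, since the A20ZF7 library gave no UMI there.

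Mast barcodes as a share of cells moved to 0.0407% (WT) and 0.0648% (A20ZF7) with a gate of 5 UMIs, to 0.0543% and 0.0879% with the gate on Cpa3, Fcer1a and Ms4a2, to 0.294% in WT without mouse 1 and to 0.0611% in WT with carriers. The share of a library's UMIs of the 8 genes held by mast barcodes was 50.8% and 27.9% with a gate of 5 UMIs and 91.2% and 76.0% with carriers. For WT it was 90.7% with the gate on Cpa3, Fcer1a and Ms4a2, 83.0% without mouse 1 and 87.4% without mouse 2. For A20ZF7 it was 50.7% with 200 genes alone, 54.5% with a gate of 2 UMIs and 51.2% with barcodes of 2 gates kept. The cause of these changes was not tested. Of 83 alternatives for these results, 53 stayed within the counting interval of the value reported, and of 116 for single genes, 89 did. In 4 of the 83 and 4 of the 116, a ratio whose interval excluded 1 turned its direction. The 53 include settings that kept the same WT carriers and so could hardly move the WT mucosal share.

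No paired analysis was possible because each genotype has 1 library. The WT counts of Cma1, Tpsb2 and Ms4a2 over all barcodes were 1, 0 and 8 UMIs, which sets the width of their intervals.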
